A study of Mus musculus with 10 samples.

Results

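The genes described here are 38 mouse interferon response genes, all 38 of which were found by symbol among the 24368 genes of the expression table. They are named genes of interferon biology and were not picked by a threshold on these values. They fall into 30 antiviral genes typical of type I interferon, 7 GTPase genes typical of interferon-gamma (Gbp2, Gbp3, Gbp7, Igtp, Irgm1, Irgm2 and Iigp1), and Irf1, which both interferons induce and which was kept apart from both classes. RNA-seq libraries came from the proximal jejunum of 5 HuR cKO mice, in which the RNA-binding protein HuR (gene Elavl1) was deleted conditionally in the intestinal epithelium, and of 5 wild-type (WT) littermates. The libraries are numbered 1, 2, 3, 4 and 5 for cKO and 1, 3, 4, 5 and 6 for WT, and the study asked what HuR does in intestinal fat absorption. The labels name no treatment for either group. The Cre driver, the deleted exons, and the strain, age and sex of the mice are not given in these sources. The RNA is total RNA of the tissue, so the unmodified immune, stromal and endothelial cells of cKO jejunum contribute to every value, and fewer cells of a type cannot be told apart from less RNA per cell.

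Interferons are secreted proteins that switch on an antiviral and antimicrobial programme in neighbouring cells. Type I interferons signal through Ifnar1 and Ifnar2, and type III interferons, to which the intestinal epithelium responds strongly, through Ifnlr1 and Il10rb. Both activate a complex that includes Stat2 and Irf9 and binds the interferon-stimulated response element (ISRE). Interferon-gamma, made largely by T cells and natural killer cells, signals through Ifngr1 and Ifngr2 and acts on promoters through the gamma-activated site (GAS), and its typical mouse targets include large GTPases that act on vacuoles holding intracellular microbes.

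Values are normalised reads, that is, the reads of a gene scaled by its library's size factor. Recovered totals were 16063987 to 18927440 reads per library, and mitochondrial genes took 2.69% to 9.48% of them. Elavl1 stood at 556, 628 and 725 (lowest, median and highest of 5) in cKO libraries and at 631, 663 and 709 in WT libraries, with a fitted log2 fold change of -0.08 (limma adjusted p = 0.798). Because the deleted exons are not named, reads summed over Elavl1 are no check of its deletion, and directions follow the labels. The clock gene Per2 stood at 12.7 in cKO 3 and 16.0 in cKO 5, against 342 to 749 in the other 8 libraries, and some values are also given without these libraries.

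The promoters of 5 members are shown to let the elements described above be seen in members of both classes. Each is the 250 bases before an annotated start, from RefSeq on GRCm38.p6, read 5′ to 3′ on the strand of the gene. Capitals mark the ISRE core, GAAANNGAAA, or the GAS, TTCNNNGAA, on either strand. Oas3 (chr5:120777660-120777909, minus strand) had the smallest p of the antiviral class. Isg15 (chr4:156200819-156201068, minus strand) is the antiviral member with the highest level per kilobase of gene length over the 10 libraries, and it was added to those shown after its window was seen. Gbp3 (chr3:142559794-142560043, plus strand), Igtp (chr11:58199306-58199555, plus strand) and Irgm1 (chr11:48871421-48871670, minus strand) are GTPase genes. The whole Irgm1 window lies within the span of Irgm1 in the annotation of the expression values (48861968 to 48871683), which begins further upstream. The ends of the Gbp3 and Oas3 windows also reach into the spans of those genes.
Oas3: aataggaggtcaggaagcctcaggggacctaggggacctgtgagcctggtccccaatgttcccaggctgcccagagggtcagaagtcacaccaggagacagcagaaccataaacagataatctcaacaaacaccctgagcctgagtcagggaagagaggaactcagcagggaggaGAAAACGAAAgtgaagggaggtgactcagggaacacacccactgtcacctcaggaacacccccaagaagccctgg
Isg15: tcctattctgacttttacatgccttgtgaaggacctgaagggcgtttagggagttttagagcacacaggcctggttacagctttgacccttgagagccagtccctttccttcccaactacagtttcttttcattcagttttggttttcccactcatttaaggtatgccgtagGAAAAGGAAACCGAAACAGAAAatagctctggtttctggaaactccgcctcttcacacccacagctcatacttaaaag
Gbp3: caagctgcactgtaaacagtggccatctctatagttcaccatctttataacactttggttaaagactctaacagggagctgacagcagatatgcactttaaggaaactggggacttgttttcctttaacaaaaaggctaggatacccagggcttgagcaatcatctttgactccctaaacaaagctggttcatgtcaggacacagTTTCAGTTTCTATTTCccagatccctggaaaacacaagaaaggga
Igtp: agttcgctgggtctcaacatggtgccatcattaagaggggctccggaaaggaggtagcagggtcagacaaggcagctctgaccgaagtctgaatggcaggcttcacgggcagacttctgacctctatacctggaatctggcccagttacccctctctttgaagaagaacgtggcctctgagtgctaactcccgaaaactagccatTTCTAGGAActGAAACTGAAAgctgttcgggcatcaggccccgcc
Irgm1: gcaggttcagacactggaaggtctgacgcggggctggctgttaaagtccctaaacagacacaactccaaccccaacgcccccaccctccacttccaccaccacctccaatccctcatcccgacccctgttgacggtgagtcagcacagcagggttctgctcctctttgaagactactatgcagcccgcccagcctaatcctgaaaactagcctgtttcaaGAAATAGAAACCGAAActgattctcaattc

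An ISRE core was present before at least 1 start of 6 of the 6 GTPase genes with a RefSeq window and of 8 of 22 antiviral genes (36.4%), against 936 of 27025 genes with such windows (3.46%). A GAS was present for 3 of the 6 GTPase genes, 5 of the 22 antiviral genes (22.7%) and Irf1, against 2197 of 27025 genes (8.13%). In Igtp the GAS and the ISRE core lie next to each other, ending 36 and 24 bases before the start. In Isg15 the 3 matches to the ISRE core overlap, as do the 2 in Gbp3 and the 2 in Irgm1. The windows of Irf9 and Ddx58 hold neither motif, which says only that these letters are not in them.

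No interferon response gene passed the test between cKO and WT. All 38 were among the 14062 genes tested (mean of at least 10 normalised reads), and 0 had a limma adjusted p under 0.05, where 1.32% of all genes tested did (0.441% higher and 0.882% lower in cKO). At an unadjusted p under 0.05 there were 10 members, 8 of them antiviral and lower in cKO and 2 of them GTPase genes and higher in cKO. Over all genes tested 18.6% had such a p, 10.1% lower and 8.46% higher. The members' shares were 26.3% in all, 26.7% lower within the antiviral class and 28.6% higher within the GTPase class, and none of these excesses over all genes was tested. The fitted log2 fold changes ran from -0.96 (Oas3) to 0.85 (Iigp1). On recovered reads edgeR's quasi-likelihood test also called 0 members, with 10 at an unadjusted p under 0.05 and 1.29% of all genes called. DESeq2 called 4, all lower in cKO, and it called 5.33% of all genes, 2.95% lower. These were Oas3 (DESeq2 adjusted p = 0.0121), Mx1 (DESeq2 adjusted p = 0.0208), Irf9 (DESeq2 adjusted p = 0.0272) and Usp18 (DESeq2 adjusted p = 0.0401).

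**Figure D1:**
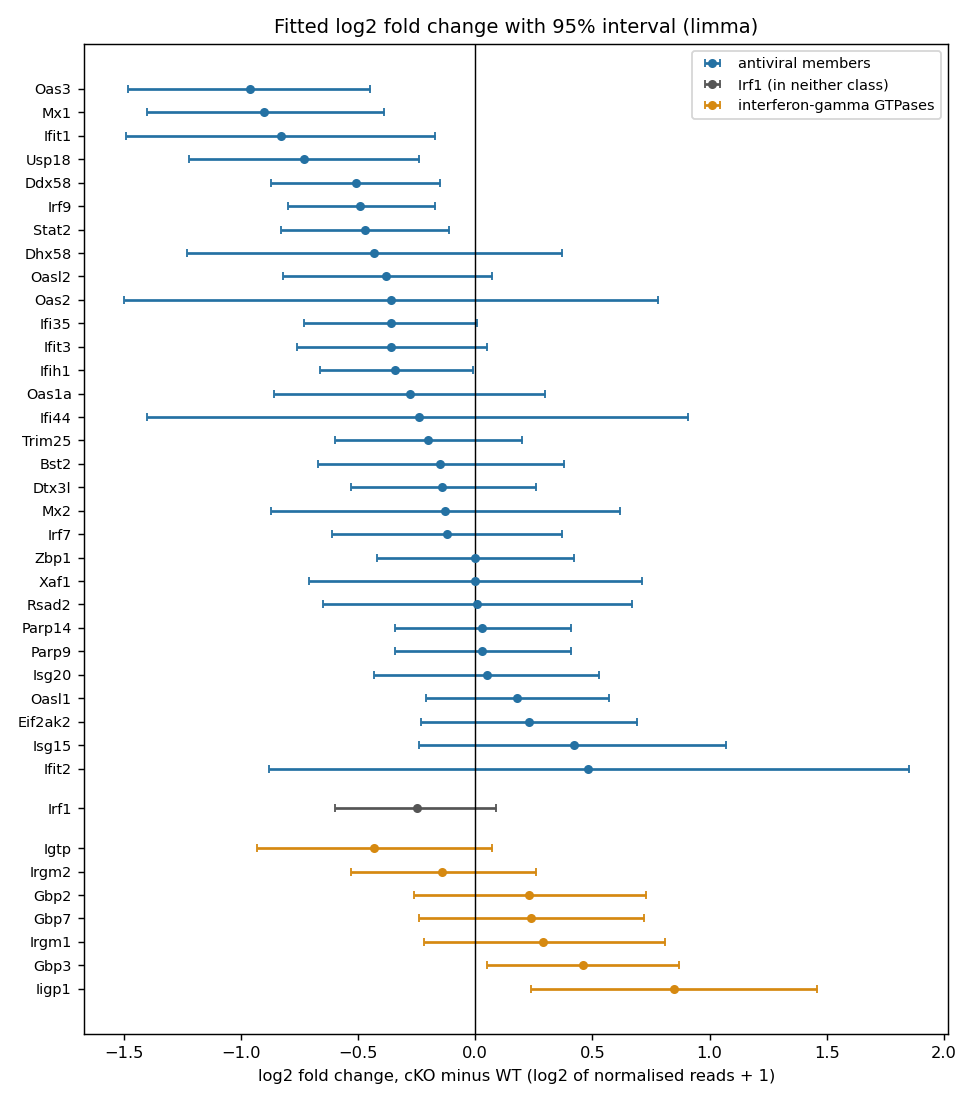
Fitted log2 fold change of each of the 38 genes, cKO minus WT, on the scale of log2(normalised reads + 1), with its 95% limma interval. Antiviral genes are at the top, Irf1 in the middle and GTPase genes at the bottom, each class in order of its value. The values run from -0.96 for Oas3 to 0.85 for Iigp1, and 21 of the 30 antiviral points lie below 0 while 5 of the 7 GTPase points lie above it.

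The transcription factors that carry the signal were lower in cKO by their fitted values, 4 of 4 counting Irf1, and none passed the test. Irf9 (ENSMUSG00000002325, chromosome 14, 55603571 to 55610030), the DNA-binding partner of Stat2, had 888, 1110, 993, 1110 and 1109 normalised reads in cKO libraries and 1431, 1466, 1601, 1181 and 1659 in WT libraries. Every cKO value lay below every WT value, and Irf9 was the 1 member of the 38 whose groups did not overlap, where 3.01% of all genes tested were lower in cKO without overlap. The fitted log2 fold change was -0.49 ± 0.15 (SE, limma adjusted p = 0.108), and the exact two-sided permutation p, not adjusted for the 38 members, was 0.00794, the smallest that 5 against 5 libraries can give. Irf9 shares 123 exon bases, 2.28% of its own, with Rnf31 on the same strand.

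Stat2 (chromosome 10, 128270559 to 128292849), a factor particular to type I and type III signalling, had 914, 1206, 943, 1143 and 1111 normalised reads in cKO libraries and 1534, 1020, 1618, 1612 and 1667 in WT libraries. WT 3 lay within the cKO range and the other 4 WT libraries lay above it (log2 fold change -0.47 ± 0.17, SE, limma adjusted p = 0.155). Irf7, which amplifies type I interferon production, had 3002, 3565, 2987, 4338 and 3542 normalised reads in cKO libraries and 2382, 2751, 4465, 4166 and 6061 in WT libraries. The cKO values of Irf7 all lay within the WT range (log2 fold change -0.12 ± 0.23, SE, limma adjusted p = 0.82). Irf1, an activator induced above all by interferon-gamma, had 5245, 5329, 4638, 4580 and 3788 normalised reads in cKO libraries and 5427, 4562, 5768, 6497 and 5817 in WT libraries. For Irf1, 4 of the 5 cKO values lay within the WT range and cKO 5 below it (log2 fold change -0.25 ± 0.16, SE, limma adjusted p = 0.418).

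Oas3 showed the lowest fold change of all members. It belongs to the oligoadenylate synthetases, which sense double-stranded RNA and make the second messenger that activates RNase L, and it lies at 120753098 to 120777661 on chromosome 5 (ENSMUSG00000032661). Its values were 622, 1224, 1008, 1134 and 1643 normalised reads in cKO libraries and 2014, 1726, 2287, 1600 and 3161 in WT libraries. The groups met at cKO 5, just above WT 5, and the other 4 cKO libraries lay below all 5 WT libraries. Oas3 averaged 1126 ± 369 in cKO and 2158 ± 621 in WT (SD, n = 5 each), a 1.95-fold lower level (fitted log2 fold change -0.96 ± 0.24, SE, limma adjusted p = 0.0639). It passed the test when cKO 4 (limma adjusted p = 0.0492, with 4.34% of all genes called) or cKO 5 (limma adjusted p = 0.0438, with 0.788% called) was left out. The other 4 genes of the family had smaller fitted changes and did not pass the test. Fitted log2 fold changes were -0.38 for Oasl2, -0.36 for Oas2, -0.28 for Oas1a and 0.18 for Oasl1 (limma adjusted p of 0.348 to 0.75). In Oas2, the lowest and the highest library differed 6.36-fold, with 40.7 to 180 in cKO and 43.5 to 259 in WT, and its log2 fold change was -1.0 without cKO 3 and cKO 5. Reads of Oas1a can be shared with near-identical copies of the same cluster, so its level is uncertain.

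Among the direct effectors, Mx1 (chromosome 16, 97447035 to 97462907), a dynamin-like GTPase that blocks viral nucleocapsids, had 83.9, 36.4, 50.7, 53.3 and 38.5 normalised reads in cKO libraries and 79.8, 90.1, 103, 112 and 91.0 in WT libraries. In 4 cKO libraries it was below every WT value, and cKO 1 overlapped WT. The fitted log2 fold change was -0.90 ± 0.24 (SE, limma adjusted p = 0.0731), and without cKO 1 Mx1 passed the test (limma adjusted p = 0.0264, with 1.35% of all genes called). Its level was low throughout, at 19.5 reads per kilobase of gene length averaged over the libraries. Its neighbour Mx2, at 10.7 to 34.1 in cKO and 14.2 to 37.9 in WT, had a log2 fold change of -0.13 (limma adjusted p = 0.881). Values for Rsad2 (viperin, which makes a chain-terminating nucleotide), Bst2 (tetherin, which holds budding virions at the cell surface) and Isg20 (an RNA exonuclease) were 0.01, -0.15 and 0.05 on the same scale (limma adjusted p of 0.782 to 0.991), with Rsad2 at -0.45 without cKO 3 and cKO 5.

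The IFIT proteins bind viral RNA ends and block translation. Ifit1 (chromosome 19, 34640871 to 34650009) had 2654, 1029, 3063, 974 and 2140 normalised reads in cKO libraries and 3024, 3095, 4102, 2262 and 3576 in WT libraries. The cKO libraries 2, 4 and 5 lay below all WT libraries and cKO 1 and cKO 3 within them (log2 fold change -0.83 ± 0.31, SE, limma adjusted p = 0.172). Ifit3 differed less, at 208 to 318 in cKO and 217 to 393 in WT (log2 fold change -0.36, limma adjusted p = 0.327). Ifit2 had 145, 70.0, 891, 86.3 and 295 in cKO libraries and 131, 95.2, 141, 132 and 185 in WT libraries. It went the other way in cKO 3 and cKO 5, which lay above all WT libraries, while cKO 2 and cKO 4 lay below them. The cKO 3 value was the highest of the 10, 12.7-fold above the lowest, cKO 2. The fitted log2 fold change of Ifit2 was 0.48 ± 0.61 (SE, limma adjusted p = 0.71), and it was -0.48 without cKO 3 and cKO 5. On recovered reads it was 1.15 in edgeR with TMM factors, 1.13 in DESeq2 and 1.40 in edgeR with library totals. Ifit1 and Ifit3 have near-identical copies in the same cluster, so their reads may be split among copies.

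Isg15 encodes a ubiquitin-like modifier, and the system around it holds both the enzyme that removes it and a ligase. Isg15 (chromosome 4, 156199424 to 156200818) had the highest level per kilobase of the 38 members averaged over the 10 libraries, at 3265 reads per kilobase. It was 3684 in cKO and 2846 in WT, and in WT Igtp stood higher, at 3006. Its values were 2478, 1647, 4145, 2363 and 3293 normalised reads in cKO libraries and 1147, 1381, 2717, 2115 and 3399 in WT libraries. Only cKO 3 lay outside the WT range, above it (log2 fold change 0.42 ± 0.30, SE, limma adjusted p = 0.481), and the value was 0.10 without cKO 3 and cKO 5. Usp18 (chromosome 6, 121245906 to 121270917), the protease that removes Isg15 and also restrains Ifnar2 signalling, had 2571, 1429, 2009, 2154 and 1782 normalised reads in cKO libraries and 2907, 2113, 3205, 3203 and 5654 in WT libraries. For Usp18, 3 cKO libraries lay below all WT libraries and none above them (log2 fold change -0.73 ± 0.23, SE, limma adjusted p = 0.121). Isg15 and Usp18 thus had fitted changes of opposite sign, neither of which passed the test. Trim25, a ligase that modifies Ddx58, was at 4083 to 7361 in cKO and 5273 to 8273 in WT (log2 fold change -0.20, limma adjusted p = 0.599).

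The cytosolic sensors of viral RNA are themselves induced by interferon. Ddx58, which encodes RIG-I (chromosome 4, 40203773 to 40239828), had 800, 626, 900, 623 and 1046 normalised reads in cKO libraries and 1206, 1197, 1103, 954 and 1124 in WT libraries. In 4 cKO libraries it was below every WT value, and cKO 5 overlapped WT (log2 fold change -0.51 ± 0.17, SE, limma adjusted p = 0.133). Ifih1, which encodes MDA5 (chromosome 2, 62595798 to 62646255), had 2544, 2219, 2455, 2762 and 2929 normalised reads in cKO libraries and 3666, 2643, 3284, 3252 and 3497 in WT libraries. WT 3 alone reached into the cKO range (log2 fold change -0.34 ± 0.15, SE, limma adjusted p = 0.251). Their regulator Dhx58 (LGP2) was at 84.2 to 323 in cKO and 125 to 326 in WT (log2 fold change -0.43, limma adjusted p = 0.559), and its value was -0.95 without cKO 3 and cKO 5. Zbp1, a Z-nucleic acid sensor that triggers cell death, and Eif2ak2, the kinase PKR that stops translation, had fitted log2 fold changes of 0.00 and 0.23 (limma adjusted p of 0.997 and 0.599). Eif2ak2 was higher than all WT libraries in cKO 1, 3 and 5 and lower than all of them in cKO 2 and 4.

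The remaining 6 antiviral members spanned -0.36 to 0.03 in log2 fold change, and none had an unadjusted p under 0.05. Parp9, Parp14 and Dtx3l, ADP-ribosyltransferases and a ubiquitin ligase encoded side by side on chromosome 16, gave 0.03, 0.03 and -0.14. Parp9 and Dtx3l overlap head to head by 458 exon bases on opposite strands, and the sources used here do not give the strand setting of the counting. Ifi35, at 1054 to 1508 in cKO and 1249 to 2047 in WT, gave -0.36 (limma adjusted p = 0.283). Ifi44 gave -0.24 and Xaf1 0.00, with wide ranges within cKO of 193 to 929 and 203 to 871, and these log2 values were -0.90 and -0.44 without cKO 3 and cKO 5.

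**Figure D2:**
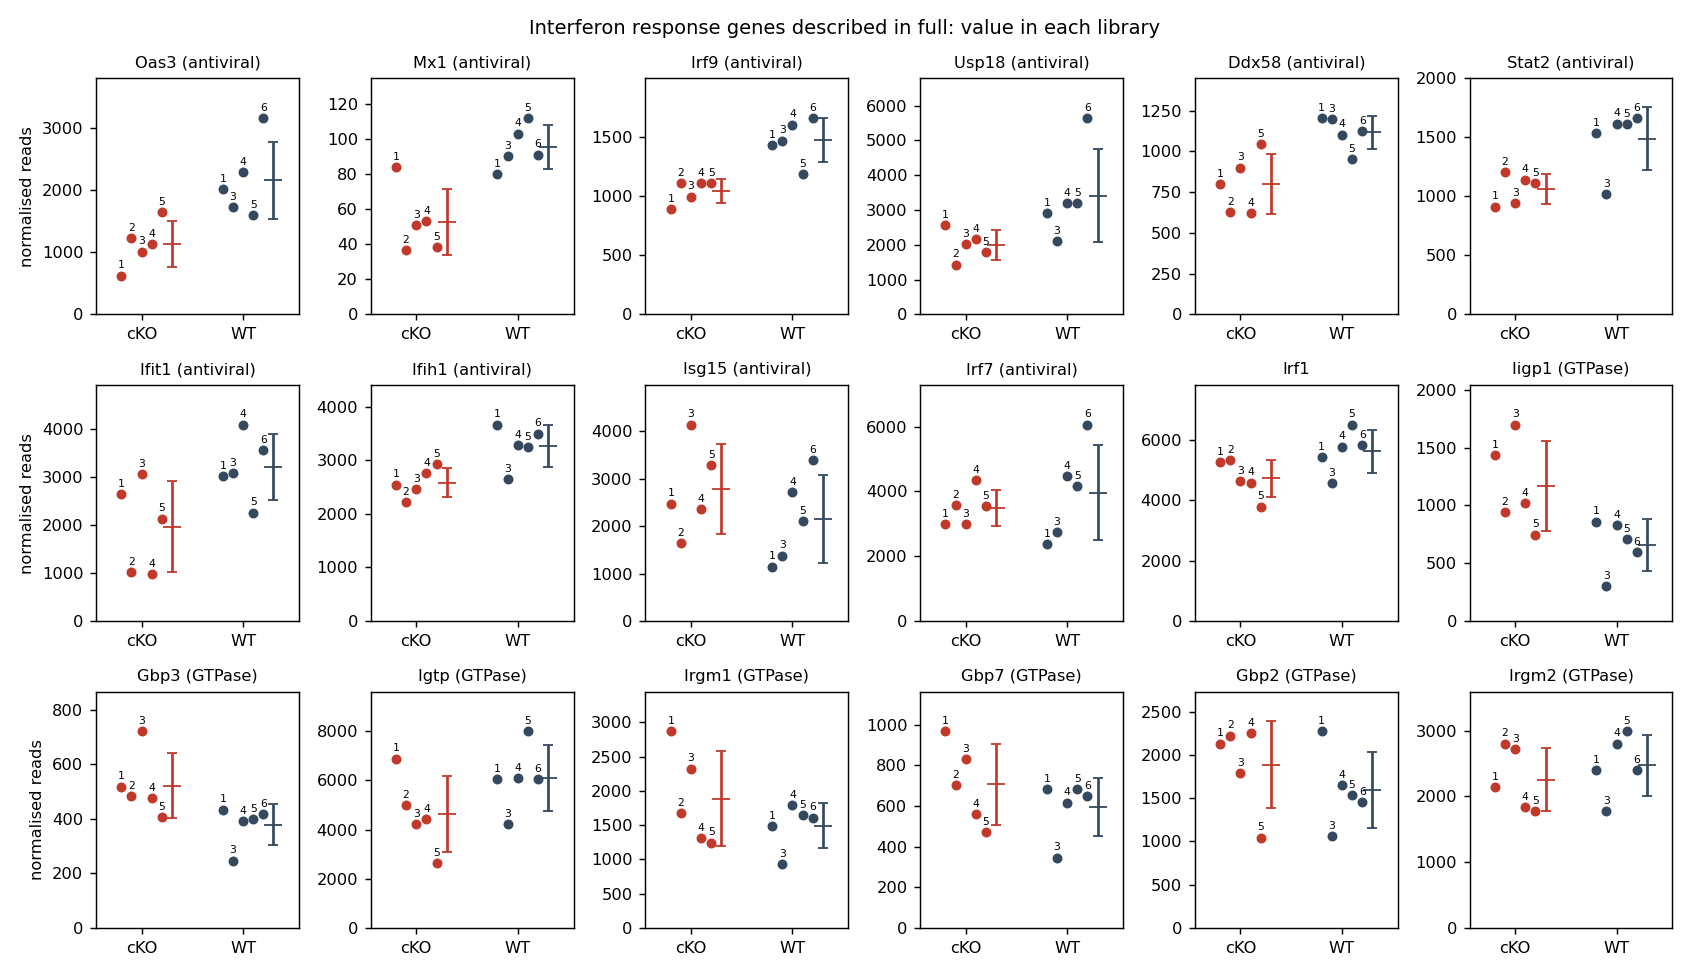
Normalised reads in each library, on linear axes from 0, for the 18 members given with every library's value. Points are libraries with their numbers, cKO at the left and WT at the right of each panel, and the bars beside them show the mean and SD (n = 5 each). Only in Irf9 do the groups not overlap, with cKO values up to 1110 and WT values from 1181.

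The guanylate-binding proteins, large GTPases that coat pathogen vacuoles and bacteria, lie together on chromosome 3 and all 3 had positive fitted changes. Gbp3 (142560026 to 142573209) had 518, 483, 721, 476 and 406 normalised reads in cKO libraries and 434, 247, 393, 399 and 417 in WT libraries. All cKO libraries but cKO 5 lay above all WT libraries (log2 fold change 0.46 ± 0.19, SE, limma adjusted p = 0.216). Gbp7 (142530342 to 142550149) had 968, 704, 831, 559 and 470 normalised reads in cKO libraries and 682, 346, 617, 684 and 650 in WT libraries. The cKO libraries 1, 2 and 3 lay above the WT range and cKO 4 and cKO 5 within it (log2 fold change 0.24 ± 0.23, SE, limma adjusted p = 0.597). Gbp2 (142620602 to 142638008) had 2132, 2224, 1793, 2252 and 1044 normalised reads in cKO libraries and 2274, 1060, 1655, 1540 and 1458 in WT libraries. The lowest Gbp2 values were those of cKO 5 and WT 3 (log2 fold change 0.23 ± 0.23, SE, limma adjusted p = 0.622). Gbp7 shares 637 exon bases, 11.3% of its own, with a pseudogene on the same strand, and members of this family are close in sequence, so reads may be split among them.

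The immunity-related GTPases, which act on vacuole membranes, split 2 and 2 in sign. Iigp1 (ENSMUSG00000054072, chromosome 18, 60376029 to 60392627), an effector GTPase that helps to break vacuoles of intracellular parasites, had 1432, 943, 1699, 1020 and 748 normalised reads in cKO libraries and 860, 302, 831, 712 and 597 in WT libraries. In 4 cKO libraries it was above every WT value, and cKO 5 overlapped WT. Iigp1 averaged 1168 ± 388 in cKO and 660 ± 226 in WT (SD, n = 5 each), a 1.80-fold higher level that did not pass the test (log2 fold change 0.85 ± 0.29, SE, limma adjusted p = 0.142).

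The other 3 belong to the regulatory branch of the family, which guards the cell's own membranes. Irgm1 (chromosome 11, 48861968 to 48871683) had 2870, 1672, 2326, 1316 and 1246 normalised reads in cKO libraries and 1484, 936, 1795, 1644 and 1611 in WT libraries. The libraries cKO 1 and cKO 3 stood above the WT range (log2 fold change 0.29 ± 0.24, SE, limma adjusted p = 0.534). Igtp (Irgm3, chromosome 11, 58199556 to 58207591) was the most abundant GTPase member per kilobase, at 2648 reads per kilobase. It had 6881, 5005, 4225, 4407 and 2635 normalised reads in cKO libraries and 6045, 4208, 6098, 7990 and 6048 in WT libraries. The lowest value was that of cKO 5 (log2 fold change -0.43 ± 0.24, SE, limma adjusted p = 0.341). Irgm2 (chromosome 11, 58199618 to 58222782) had 2148, 2804, 2716, 1840 and 1783 normalised reads in cKO libraries and 2397, 1781, 2803, 2991 and 2402 in WT libraries. The cKO values of Irgm2 all lay within the WT range (log2 fold change -0.14 ± 0.19, SE, limma adjusted p = 0.734). Igtp and Irgm2 share 162 exon bases on the same strand, 8.01% of Igtp and 4.39% of Irgm2.

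Set side by side, the antiviral class had a median log2 fold change of -0.22 with 21 of 30 genes lower in cKO, and the GTPase class a median of 0.24 with 5 of 7 higher. The median of all genes tested was 0.01, with 49.0% of them below 0 and 51.0% above. The difference of the medians, antiviral minus GTPase, was -0.46. Without cKO 3 and cKO 5 the medians were -0.44 and 0.34 and their difference -0.78, and 13 members then had an unadjusted p under 0.05, where 12.4% of all genes did, with 0 members and 0.399% of all genes called. The antiviral median was -0.08 without WT 6 and -0.32 without WT 3. The GTPase median was 0.10 without WT 3 and 0.42 without cKO 5. In every one of these fits the antiviral median was below 0 and the GTPase median above it.

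Averaged within a library, the classes overlapped between the groups. The class mean is the mean, over the genes of the class, of log2(normalised reads + 1) centred on the 10 libraries. For the antiviral class it was -0.21, -0.38, 0.23, -0.38 and 0.17 in cKO libraries and 0.00, -0.24, 0.32, 0.00 and 0.50 in WT libraries. The cKO libraries 1, 2 and 4 were low and cKO 3 and cKO 5 were as high as most WT libraries. For the GTPase class it was 0.45, 0.17, 0.39, -0.03 and -0.44 in cKO libraries and 0.11, -0.75, 0.07, 0.10 and -0.06 in WT libraries. Here cKO 5 and WT 3 stood lowest and the others were close together or higher. The antiviral class averaged -0.12 ± 0.30 in cKO and 0.12 ± 0.29 in WT, and the GTPase class 0.11 ± 0.36 in cKO and -0.11 ± 0.37 in WT (SD, n = 5 each), so each of these differences was smaller than the SD within a group. The antiviral minus the GTPase mean of a library was -0.66, -0.55, -0.16, -0.35 and 0.61 in cKO libraries and -0.11, 0.51, 0.25, -0.10 and 0.56 in WT libraries. It averaged -0.22 ± 0.51 in cKO and 0.22 ± 0.32 in WT (SD, n = 5 each), a difference of -0.45 that lies between the SDs of the groups. The groups overlapped through cKO 5, the highest of all 10 libraries.

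**Figure D3:**
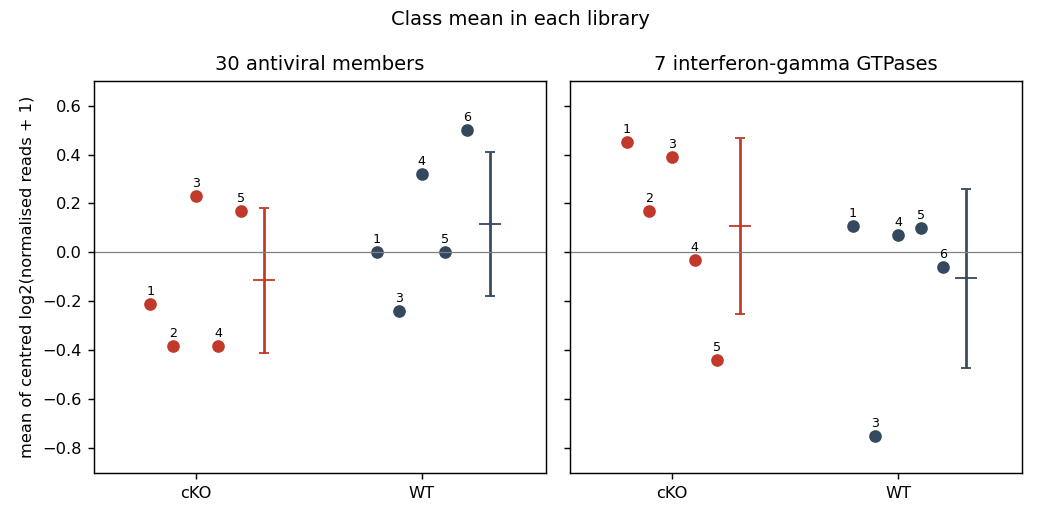
Class mean in each library, as the mean of centred log2(normalised reads + 1) over the 30 antiviral genes (left panel) and the 7 GTPase genes (right panel). Points are libraries with their numbers, cKO left of WT, and bars show the mean and SD (n = 5 each). In both panels the groups overlap, and WT 3 has the lowest GTPase mean, -0.75.

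A few libraries set the extremes of most members. WT 6 was the highest library for 15 of the 30 antiviral genes, where it was highest for 7.66% of all genes tested. The libraries cKO 1, 2 and 4 together held the lowest value of 23 of the 30 (76.7%), against 32.3% of all genes. WT 3 held the lowest value of 5 of the 7 GTPase genes (71.4%), against 7.79% of all genes. Of the 30 antiviral genes, 6 peaked in cKO 3 (20%, against 14.2% of all genes), namely Ifit2, Rsad2, Xaf1, Isg15, Zbp1 and Parp14. The median SD of log2 values within a group was 0.35 in cKO and 0.34 in WT over the members, and 0.40 in cKO and 0.28 in WT over all genes tested.

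**Figure D4:**
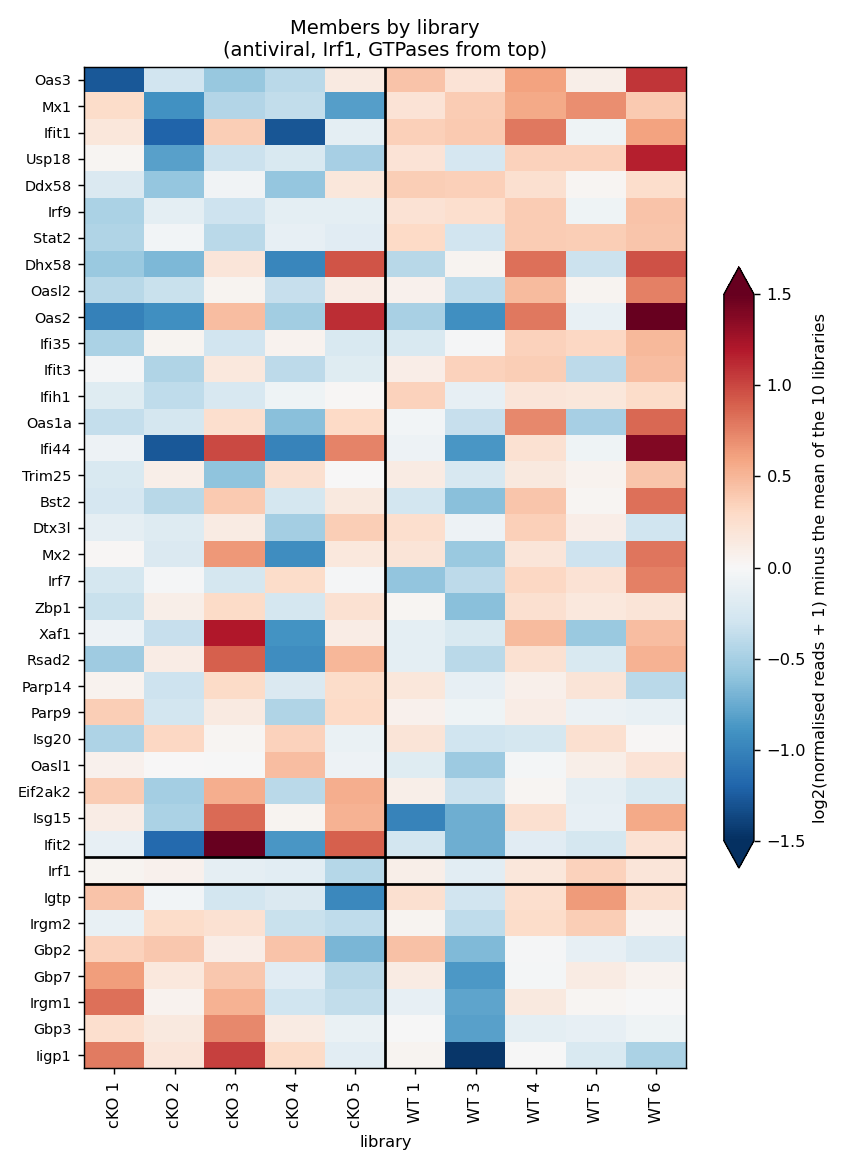
Log2(normalised reads + 1) of each member minus its mean over the 10 libraries, with cKO libraries left of WT libraries. Antiviral genes are at the top, then Irf1, then the GTPase genes, in the order of the fold change plot, and the colours are clipped at 1.5 in either direction. The antiviral rows are mostly blue in cKO 1, 2 and 4 and red in WT 6, and the GTPase rows are blue in WT 3.

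Upstream of the members, interferon transcripts were at or near the limit of detection. Of 10 interferon genes listed, 4 were in the table and 1, Ifng, had enough reads to be tested. Ifng had 6.36, 4.55, 32.5, 2.13 and 13.6 normalised reads in cKO libraries and 6.14, 5.06, 12.7, 7.98 and 20.6 in WT libraries. The groups overlapped throughout (log2 fold change -0.17 ± 0.59, SE, limma adjusted p = 0.901). Ifnl2, a type III interferon, had 3 recovered reads in all 10 libraries together.

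All 6 receptor chains were tested and 1 of them passed the test, where 1.32% of all genes tested did. Ifngr2, the signalling chain of the interferon-gamma receptor, had 2355, 2976, 2476, 2869 and 2725 normalised reads in cKO libraries and 3961, 4912, 3950, 4209 and 4769 in WT libraries. Every cKO value lay below every WT value. Ifngr2 averaged 2680 ± 261 in cKO and 4360 ± 453 in WT (SD, n = 5 each), and so fell 1.63-fold (limma log2 fold change -0.70 ± 0.15, SE, adjusted p = 0.0346). The call held in 9 of 21 alternative settings and kept its sign in all 21. With 1 library left out it held without cKO 1, 2 or 4 and was lost without cKO 3, without cKO 5 and without any 1 of the WT libraries, and the adjusted p over all settings ran from 9.48e-05 to 0.117.

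The ligand-binding chain Ifngr1 had 3637, 2424, 2589, 3432 and 3436 normalised reads in cKO libraries and 2055, 2194, 1750, 1745 and 2341 in WT libraries. Every cKO value lay above every WT value, but the test was not passed (log2 fold change 0.61 ± 0.17, SE, limma adjusted p = 0.083). Of 21 alternative settings, 2 called Ifngr1, namely DESeq2 (DESeq2 adjusted p = 0.0114) and edgeR with library totals (edgeR adjusted p = 0.0384). The 2 chains of the interferon-gamma receptor therefore had fitted changes of opposite sign. Ifnar2 had 203, 182, 131, 212 and 161 in cKO libraries and 253, 251, 244, 272 and 304 in WT libraries, again with no overlap (log2 fold change -0.59 ± 0.17, SE, limma adjusted p = 0.0935). DESeq2 called Ifnar2 as well (DESeq2 adjusted p = 0.0325), where DESeq2 called 5.33% of all genes. Il10rb, a chain shared by the receptors of interferon-lambda and interleukin-10, had 1158, 1385, 620, 1703 and 891 in cKO libraries and 2047, 1711, 1730, 1753 and 2039 in WT libraries. Its groups met without overlapping, at cKO 4 and WT 3 (log2 fold change -0.77 ± 0.23, SE, limma adjusted p = 0.10). Il10rb was called in 1 of 21 alternative settings, with 1 library left out. Ifnar1 and Ifnlr1 had fitted log2 fold changes of -0.36 and -0.25 with overlapping groups (limma adjusted p of 0.211 and 0.41). The groups thus did not overlap for 4 of the 6 chains, where 4.87% of all genes tested showed no overlap, 3.01% lower and 1.86% higher in cKO.

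**Figure D5:**
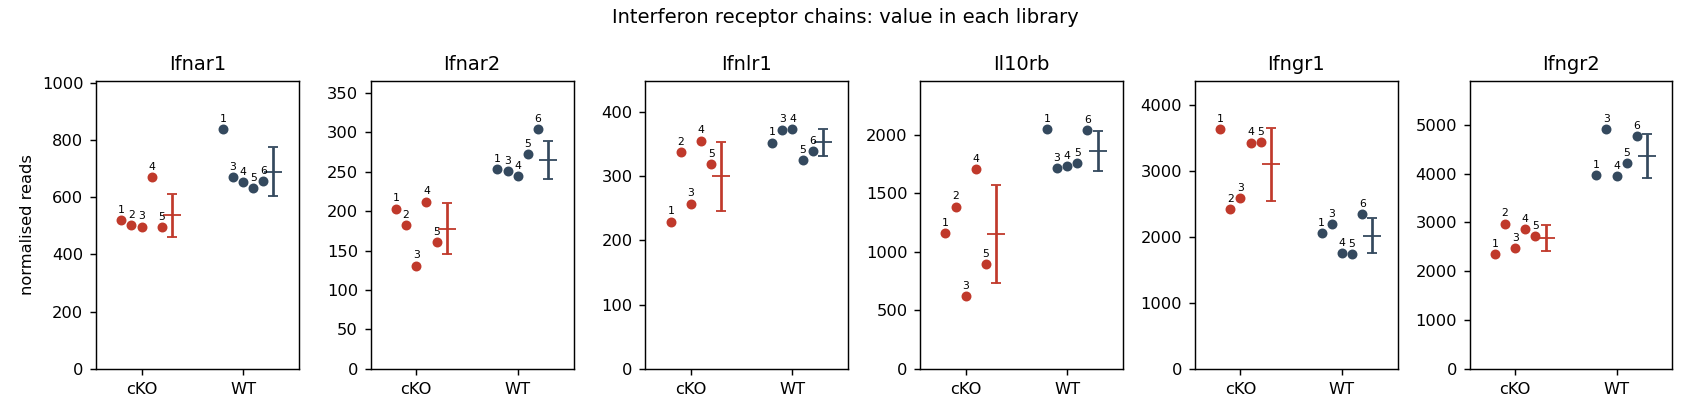
Normalised reads of the 6 interferon receptor chains in each library, on linear axes from 0, with the type I chains at the left, the type III chains in the middle and the interferon-gamma chains at the right. Points are libraries with their numbers, cKO left of WT, and bars show the mean and SD (n = 5 each). Ifngr2 lies at 2355 to 2976 in cKO and 3950 to 4912 in WT, while Ifngr1 lies at 2424 to 3637 in cKO and 1745 to 2341 in WT.

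None of the other pathway genes reported here passed the test. The receptor kinases Jak1, Jak2 and Tyk2 had fitted log2 fold changes of -0.23, -0.15 and -0.18 (limma adjusted p of 0.462 to 0.695). Among 4 brakes of signalling, Irf2, a repressor of interferon-induced genes, had the smallest p (log2 fold change -0.49, limma adjusted p = 0.203). Irf2 was called in 1 of 21 alternative settings, with 1 library left out. Of 11 sensing genes tested, Mb21d1, which encodes the DNA sensor cGAS, had 18.4 ± 8.70 in cKO and 6.31 ± 4.29 in WT (SD, n = 5 each; fitted log2 fold change 1.48, limma adjusted p = 0.121). Mavs, the adaptor of Ddx58 and Ifih1, gave -0.46 (limma adjusted p = 0.167).

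Further targets outside the 38 members had medians of the same sign as their class. Of 28 more antiviral genes, 0 passed and 23 had negative fitted changes, with a median of -0.22. Apol9b was the lowest of those with the smallest p, at 820 ± 456 in cKO and 1703 ± 668 in WT (SD, n = 5 each; fitted log2 fold change -1.13, limma adjusted p = 0.117), and Sp100, a nuclear body protein, gave -0.46 (limma adjusted p = 0.137). Of 23 more interferon-gamma targets tested, 0 passed and 14 had positive fitted changes, with a median of 0.16. The other 9 had negative ones, among them Ido1 (log2 fold change -0.49, limma adjusted p = 0.245) and Tap1 (log2 fold change -0.40, limma adjusted p = 0.253). The list mixes GTPase genes with targets of other kinds, such as Ido1 and Tap1, and no median was taken for each kind. Gbp9 had 230, 188, 336, 166 and 233 in cKO libraries and 137, 88.1, 165, 134 and 147 in WT libraries, with every cKO value above every WT value (log2 fold change 0.77 ± 0.22, SE, limma adjusted p = 0.0897). Gbp10, close in sequence to other guanylate-binding protein genes, gave 1.39 (limma adjusted p = 0.14). DESeq2 called Apol9b, Gbp9 and Gbp10 (DESeq2 adjusted p of 0.0398, 0.0271 and 0.0332), where it called 5.33% of all genes.

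Markers of other cells in the tissue were read in the same libraries, and their part in the members' values was not tested. The 9 markers of T cells and intraepithelial lymphocytes, a source of interferon-gamma, summed to 10113 to 18103 normalised reads in cKO and 10644 to 11754 in WT. None of the 9 passed and 4 had positive fitted changes. Gzma, which supplies most of that sum, had 10926, 7457, 12439, 6710 and 10619 in cKO libraries and 6773, 6646, 6578, 7201 and 6388 in WT libraries. Gzma was high in cKO 1, cKO 3 and cKO 5, where the GTPase class mean was 0.45, 0.39 and -0.44. Of the 4 natural killer markers, which summed to 20.9 to 51.3 in cKO and 15.2 to 45.9 in WT, Ncr1 was near 0 in all libraries. Klrk1, the only 1 of them tested, had 28.1 ± 10.2 in cKO and 13.7 ± 7.37 in WT (SD, n = 5 each; fitted log2 fold change 1.07, limma adjusted p = 0.193). Myeloid and dendritic markers summed to 3587 to 5498 in cKO and 3285 to 5774 in WT, with 0 of 9 tested called. Of these 9, 7 had positive and 2 negative fitted changes. The scarce dendritic marker Clec9a, with 107 recovered reads in all, gave 1.41 (limma adjusted p = 0.233). Siglech, with 97 recovered reads in all and too low to be tested, stood at 9.09 to 16.0 in cKO and 2.17 to 8.98 in WT. Fibroblast markers summed to 5047 to 8162 in cKO and 3984 to 4933 in WT, with 2 of 4 called higher, and endothelial markers to 668 to 1275 in cKO and 290 to 479 in WT, with 1 of 3 called higher. Over all genes tested, 0.441% were called higher in cKO. The 7 enterocyte markers, 0 of which were called, summed to 449060 to 983385 in cKO and 495969 to 670581 in WT. The ileal markers were scarce, at 13.5 to 222 in cKO and 124 to 242 in WT as sums over both genes.

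In the authors' deposited table, 4 of the 38 members had an adjusted p under 0.05, where 607 of all its 24368 genes did (2.49%). That share counts the low genes too, unlike the shares above, which are over the 14062 genes tested. These were Oas3 at 0.00326, Irf9 at 0.00757, Ddx58 at 0.0437 and Usp18 at 0.0451 in the authors' deposited table, all with negative log2 fold changes there, of -0.95, -0.48, -0.48 and -0.72. For Mx1 the authors' deposited table gives a log2 fold change of -0.58 with an adjusted p of 0.219. Which libraries stand behind the authors' deposited p-values is not given in the sources used here, and the authors' deposited table holds 2 further columns of per-sample values that match no label.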

How the data were processed

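Per the submitters' processing notes, the tools were CASAVA, HISAT2 2.0.5, featureCounts 1.5.0-p3 and DESeq2 1.20.0, and the build mm10. The sources used here do not give the annotation release, the strand setting or the handling of multiple matches. The deposited values are a normalised signal, which from the values is reads over a size factor per library (whole within 0.001 for 100% of values once divided by the library's step). It also gives the authors' log2 fold changes and p-values, used for comparison only, and 2 further per-sample columns that were not used. Reads of different libraries were of like depth, so precision is limited mainly by 5 mice a group. The p-values weigh the difference between the groups against the spread between these libraries.

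On the scale of log2(value + 1), the genes whose mean reached 10 were fitted with genotype alone in limma 3.58.1 (R 4.3.3, trend and robust options), with Benjamini-Hochberg adjustment of p over every gene tested. A fold change on this scale understates the change of low genes. Intervals are at 95%. edgeR 4.0.16 and DESeq2 1.42.0 were run on the recovered reads as alternatives, beside other filters, pseudocounts and scalings, a replicate block and leaving out libraries. The steps were tested on simulated data. Exact permutation tests were two-sided, over the 10 library values of a gene. Exons were matched to GENCODE M21 for overlaps, and coordinates matched it for 37 of 38 members.

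The members, gene lists and marker lists were chosen with earlier results of these data known, so no count over them is independent support. Every library's value was given for the 10 members with the smallest p, the GTPase genes, Stat2, Irf9, Irf7 and Irf1 and the antiviral member highest per kilobase. From each pathway list up to 4 genes past the threshold were named, or else at most 2 with the smallest p. Further receptor and kinase values, and those of Ido1 and Tap1, were named after they were seen. Other listed genes enter counts and medians only, and some are not reported here.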

Additional observations from a re-analysis of the deposited data

Results flagged for a closer look

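Outlying libraries were looked for in each group of 5 with Dixon's criterion (the gap to the nearest library over the whole range, above 0.71), over 104 groups of values, and chance marks about 1 in 20 groups. It marked 7. Ifit2 stood at 891 normalised reads in cKO 3, against 70.0 to 295 in the other cKO libraries. Oasl1 stood at 10200 in cKO 4, against 7001 to 7752 in the other cKO libraries. WT 3 was low for 3 members. Stat2 was at 1020 there, against 1534 to 1667 in the other WT libraries. Gbp3 was at 247, against 393 to 434, and Gbp7 at 346, against 617 to 684. Ifnar1 was high in 1 library of each group, at 669 in cKO 4, against 495 to 521, and at 838 in WT 1, against 632 to 670.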

How the results depend on the processing

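Over 21 alternative settings, 24 of the 38 members kept the sign of their fold change, including all 10 with an unadjusted p under 0.05, and 4 members were called in at least 1 setting. DESeq2 called 4 members and 750 genes in all, against 0 and 186. Genes called in all were 42 in limma without trend and robust options, 88 with the 8 libraries whose numbers occur in both groups, and 56 once cKO 3 and cKO 5 were dropped. Leaving out single libraries, 0 to 1 members and 30 to 611 genes were called, lowest without WT 4 and highest without cKO 4. The labels do not say whether the replicate numbers pair the mice. Deviations of same-numbered libraries correlated at 0.118, 0.022, -0.105 and 0.096, and none correlated best with its own number. Low correlations cannot settle this, since paired mice may share little of the spread. The replicate block called 0 members and 130 genes, with an antiviral median of -0.04 and a GTPase median of 0.27. Library totals in edgeR moved the median of all genes to 0.14, the antiviral median to -0.08 and the GTPase median to 0.35, so relative to all genes the antiviral class stayed lower.

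Signs turned for 14 members, with values in log2. edgeR with TMM turned Xaf1 (0.14), and DESeq2 turned Xaf1 (0.13) and Zbp1 (-0.004). Library totals turned Mx2 (0.058), Ifi44 (0.031), Dtx3l (0.012) and Xaf1 (0.32). The block and the same 8 libraries without it turned Isg20 (-0.011), Oas2 (0.19), Irf7 (0.044), Mx2 (0.098), Bst2 (0.12), Ifi44 (0.36) and Xaf1 (0.20). Leaving out cKO 3 and cKO 5 turned Ifit2 (-0.48), Rsad2 (-0.45), Zbp1 (-0.17), Parp9 (-0.10), Parp14 (-0.14) and Eif2ak2 (-0.064). With single libraries left out, values ran from -0.076 to 0.84 for Ifit2, -0.21 to 0.24 for Rsad2, -0.16 to 0.084 for Zbp1, -0.055 to 0.15 for Parp9, -0.065 to 0.12 for Parp14, -0.30 to 0.22 for Xaf1, -0.031 to 0.17 for Isg20, -0.30 to 0.093 for Mx2, -0.68 to 0.001 for Oas2, -0.28 to 0.056 for Irf7, -0.32 to 0.038 for Bst2 and -0.52 to 0.075 for Ifi44. The cause was not tested. Mx2 drops out with a minimum mean of 50. Depth limits the low genes, such as Mx2, Isg20, Mx1 and Ifng.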
